A study of Bos taurus with 27 samples.

Results

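Colon gene expression was compared between calves of multiparous cows (C) and calves of primiparous heifers (H) within the treatment in which colostrum was first given at 12 h after birth (TRT12). TRT12 held 9 of the 27 calves of the study, 5 of them TRT12_C and 4 TRT12_H, and 14596 of the 24616 genes in the count table had a CPM (reads of a gene per 1000000 reads counted in that calf) of 1 or more in at least 4 of these 9 calves and were tested. The remaining 18 calves had been fed first at 0 h (TRT0) or 6 h (TRT6), with 5 C and 4 H calves in each, and are used here only to set the parity difference in TRT12 beside the same difference at the other feeding times. All were male Holstein calves, each sampled as a whole-tissue piece of colon at 51 h of age. TRT12_C and TRT12_H had received the same pooled, heat-treated colostrum once by tube, in an amount scaled to birth weight, and milk replacer afterwards. Parity is not part of the sample labels. It was taken by calf number from the sample sheet published with the study. C and H calves thus differed in dam but not in the source of their colostrum, and their birth weights were not compared here.

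At birth a calf has almost no antibodies of its own and takes up immunoglobulins, growth factors and cells from colostrum through the gut during its first day. The colon is at this time colonized by its first bacteria, while its epithelium of absorptive colonocytes and goblet cells renews from the crypts over a wall of fibroblasts, vessels, nerve and smooth muscle. Dams in their first lactation differ from older cows in body growth and in the environment they give the fetus. Because all calves here shared a colostrum pool, the comparison TRT12_C vs. TRT12_H asks for a difference between calves of the 2 kinds of dam after the longest delay of feeding.

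Library totals in TRT12 ran from 1314579 to 4202593 reads counted in genes, with a mean of 2202973 ± 751639 (SD, n = 5) in TRT12_C and 2598735 ± 1292952 (SD, n = 4) in TRT12_H. These totals were far below the number of reads per sample that the study reports as sequenced, and the reason was not tested. At these totals 3 reads correspond to 0.714 to 2.28 CPM. A CPM of 1 or more was reached by 14244 ± 483 genes in TRT12_C and 14488 ± 366 in TRT12_H, a difference that did not exceed the spread between calves (two-sided exact permutation test, p = 0.421). Every pair of libraries differed by more than sampling noise, with a chi-square of at least 3.97 per degree of freedom in the 36 pairs. Epithelial markers were present in every calf, with CDH17 (an intestinal cadherin) at 650 to 1071 CPM and EPCAM (an epithelial adhesion molecule) at 294 to 687, and so was muscle, with DES (desmin) at 1051 to 2194. RN7SL1, COX1, COL3A1, CYTB and ACTB were the named genes of highest mean CPM, from 23150 and 22230 for RN7SL1 in C and H to 3537 and 3389 for ACTB. Calves 4117 and 4168 (both H) were sequenced in a run that held no TRT12_C library, so run and parity are partly tied. The 7 other calves shared a run in which both lanes held C and H calves. Its H calves, 4128 and 4139, lay in different lanes. Within TRT12, fits with lane as a term and fits without the other run therefore estimate parity from the same 7 calves and are not separate checks.

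No gene passed the test. Of the 14596 genes tested, 0 (0.0%) reached a Benjamini-Hochberg adjusted p of 0.10 together with a fold change of 1.2 in edgeR's quasi-likelihood test, and the lowest adjusted p was 1.0. At an unadjusted p under 0.05 there were 140 genes higher in TRT12_C (0.959% of those tested) and 179 higher in TRT12_H (1.23%), together 319 or 2.19%, where 5% would pass if no gene differed. The exact test and DESeq2 called 0 genes as well, with 335 and 245 genes at an unadjusted p under 0.05, and the likelihood ratio test called 1, LOC522174, with 363. In 37 genes (0.253%) every C calf lay above every H calf, and in 67 (0.459%) every H calf lay above every C calf. The genes named below are therefore those with the smallest unadjusted p and none of them is a call.

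The precision of the fit limits what these counts exclude. The median 95% interval of a log2 fold change reached 0.53 to either side, and it was widest at low expression, with 0.93 for the 5278 genes under 10 CPM against 0.44 for the 8083 genes from 10 to 100 CPM and 0.35 for the 1235 genes above. For 10334 genes (70.8%) the whole interval lay within a 2-fold difference in either direction, and for 5231 (35.8%) within 1.5-fold. Under 10 CPM the interval lay within 2-fold for only 29.2% of genes. An estimate beyond 2-fold was given to 261 genes, 78 higher in C and 183 higher in H. The plot of effect against p shows the 24 leading named genes among all tested genes.

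**Figure D1:**
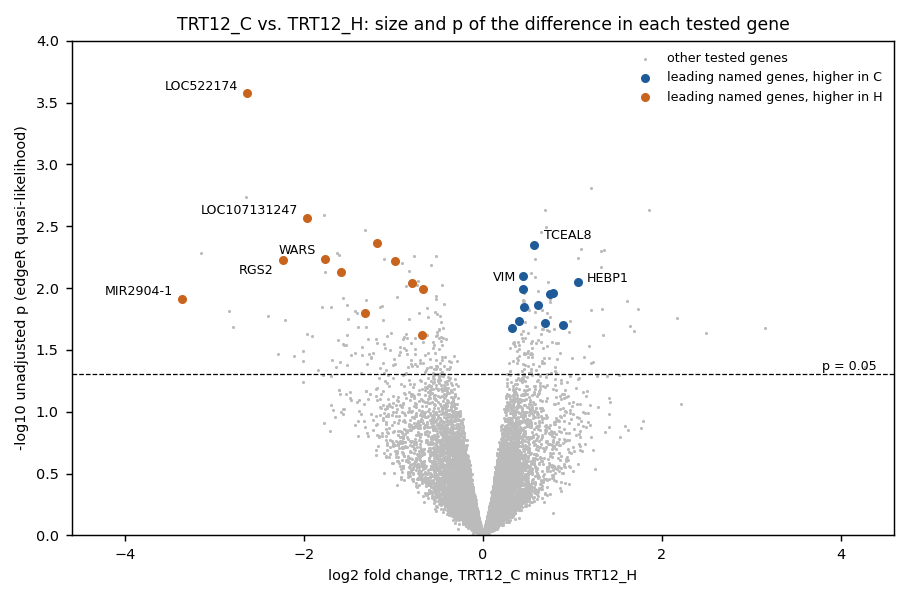
The log2 fold change (TRT12_C minus TRT12_H) is plotted on the x axis and the -log10 of the unadjusted p of edgeR's quasi-likelihood test on the y axis for each of 14596 tested genes, with the 12 leading named genes of each direction in colour and the unadjusted threshold of 0.05 as a dashed line. LOC522174 is the highest point at a log2 fold change of -2.63, and the leading genes higher in C sit at smaller fold changes (0.33 to 1.06) than most of those higher in H (0.67 to 3.36 in size).

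The whole profiles did not separate by parity. Between-group distance made up 10.003% of the squared distance among the 9 calves on log2(CPM + 1) of the tested genes, against a mean of 12.5% over all ways to label 5 calves as C (one-sided exact permutation test, p = 0.802). The first principal component held 26.2% of the variance and the second 21.0%, and neither differed between C and H (two-sided exact permutation tests, p = 0.468 and p = 0.54, and 0.54 for either after Benjamini-Hochberg adjustment over both). Calf 4117 (H) had the highest score on the first component and the lowest on the second, and calf 4158 (C) had the next score on the first and the highest on the second. Summed markers of matrix and muscle were highest in calf 4158, whereas calf 4117 lay within the range of the other calves. The matrix list was highest in calf 4158 with 28020 CPM, against 16510 in calf 4117, and the smooth muscle list was also highest in 4158 with 23160, against 14050 in 4117. Their part in the components was not tested.

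**Figure D2:**
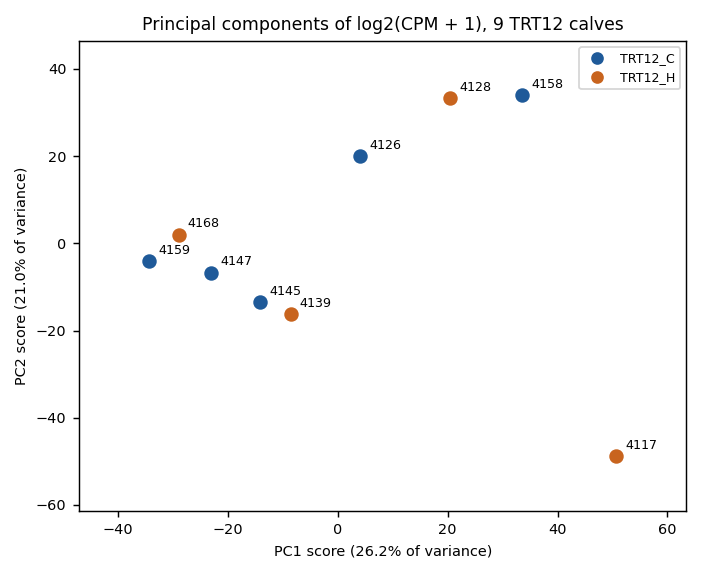
Scores of the 9 TRT12 calves on the first (x axis, 26.2% of variance) and second (y axis, 21.0%) principal component of log2(CPM + 1), with blue for TRT12_C and orange for TRT12_H. Points of both groups lie on both sides of each axis, and calf 4117 stands apart at the lower right.

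Genes higher in calves of heifers included 3 copies annotated as multidrug resistance-associated protein 4-like. Multidrug resistance-associated protein 4 (ABCC4) is a membrane transporter that pumps organic anions such as bile acids, cyclic nucleotides and conjugated drugs out of cells. LOC522174 (ENSBTAG00000026070) had the smallest p of all genes. It stood at 1.34, 1.92, 1.29, 1.84 and 3.67 CPM in C calves 4126, 4145, 4147, 4158 and 4159 and at 3.04, 5.25, 17.6 and 20.8 CPM in H calves 4117, 4128, 4139 and 4168. High values were found in calves 4139 and 4168, and the groups overlapped only through calf 4159. Its log2 fold change was -2.63 ± 0.56 (SE, unadjusted p = 0.000267, adjusted p = 1.0 by edgeR's quasi-likelihood test), and with the likelihood ratio test the adjusted p was 0.0911.

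The 2 further copies were also high in calf 4168 but differed from LOC522174 in the other H calves. LOC107131247 (ENSBTAG00000047764) was at 3.56, 0.639, 7.74, 11.8 and 11.7 CPM in the C calves and at 46.4, 29.9, 6.42 and 28.4 CPM in the H calves, again in the order of calf number, so that 3 H calves lay above all C calves and calf 4139, high for LOC522174, lay among them. LOC509854 (ENSBTAG00000023309) was at 4.47 to 9.35 CPM in C and at 55.5, 9.51, 6.19 and 20.8 CPM in H. Its difference rested on calves 4117 and 4168, which were sequenced in the run without TRT12_C calves. The log2 fold change was -1.58 ± 0.51 with all calves and -0.76 without calf 4117. It was -0.18 without both of these calves and -0.13 with sequencing lane as a term, and both fits rest on the calves of the other run. For LOC107131247 it was -1.96 ± 0.55, and -1.17 with lane as a term. The remaining members with a name differed less, LOC523126 at 18.5 ± 13.9 CPM in C and 32.8 ± 17.4 in H, and LOC100299180, annotated as multidrug resistance-associated protein 4 itself, at 67.8 ± 13.1 and 80.8 ± 35.5 (SD, n = 5 and n = 4; unadjusted p = 0.131 and 0.464 by edgeR's quasi-likelihood test). Copies that carry the same annotation may share reads, and the counting left out reads assigned to more than 1 gene, so the level of a single copy is uncertain. The family was drawn together after its values had been seen.

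WARS was high in 2 of the 4 H calves. WARS (ENSBTAG00000004679), the tryptophanyl-tRNA synthetase that interferon-gamma induces, was at 169, 90.1, 208, 166 and 108 CPM in the C calves and at 1349, 568, 92.1 and 120 CPM in H calves 4117, 4128, 4139 and 4168. Calves 4139 and 4168 thus lay within the range of C. ERAP1, a peptidase that trims peptides for MHC class I, was at 159 and 122 CPM in calves 4117 and 4128 and at 55.2 and 79.3 in the others of H, against 55.3 to 93.0 in C.

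As log2 fold changes these differences were -1.77 ± 0.55 for WARS (unadjusted p = 0.00587) and -0.55 ± 0.23 for ERAP1 (unadjusted p = 0.0289, both by edgeR's quasi-likelihood test). Without calf 4117 they were -0.76 and -0.31, and with lane as a term -0.66 and -0.23. Other genes that interferon induces were highest in calf 4117 too. PARP14 stood at 300 CPM there and at 90.2 to 149 in the other 8 calves, and CD74, the invariant chain of MHC class II, at 1155 against 386 to 708. Calf 4117 also had the smallest library and belonged to the run without TRT12_C calves. Without that run the log2 fold change of WARS was -1.07 (unadjusted p = 0.0246 by edgeR's quasi-likelihood test). The part of library size was not tested, and the part of the run only through these fits. Only 3 of the 37 genes of the interferon list carried a name in the tables used, and of these IFIT2 had a log2 fold change of 0.007 ± 0.61. Outside TRT12, WARS was at 80.4 to 586 CPM in the 18 other calves, with its highest values of 586 and 437 in 2 TRT6_H calves.

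The other leading genes higher in TRT12_H were mostly low in level. CYP2B6, a cytochrome P450 of drug metabolism, was at 5.87 to 12.5 CPM in C and at 22.1, 15.8, 39.98 and 9.84 in H, with a log2 fold change of -1.19 ± 0.35 that was -0.57 without calf 4139. GAL3ST2, a sulfotransferase that acts on galactose of mucin-type glycans, was the only one of the 12 without overlap, at 4.15 to 7.09 CPM in C and 7.85 to 10.4 in H. TOX3, a nuclear protein of the high mobility group, was at 8.61 ± 2.02 CPM in C and 14.7 ± 4.01 in H, and ZNF576, a zinc finger gene, at 3.75 ± 1.498 and 7.90 ± 1.45 (SD, n = 5 and n = 4). HBG, a fetal-type hemoglobin chain and the only tested marker of red cells, was at 0.733 to 2.58 CPM in C and 2.19 to 5.47 in H. MIR2904-1 was spread widely within both groups, from 0.445 to 174 CPM in C and from 4.56 to 999 in H.

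**Figure D3:**
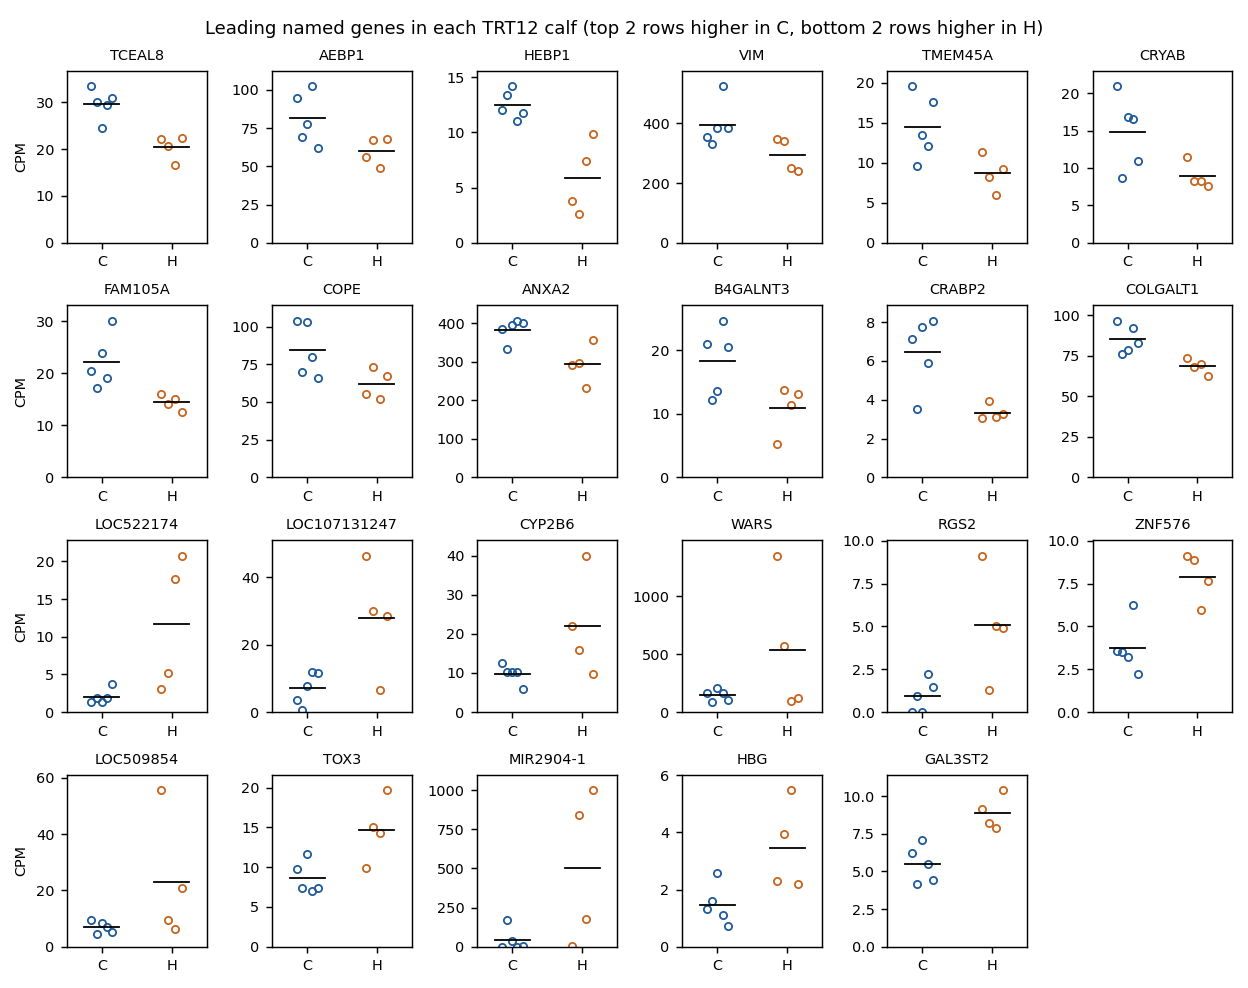
CPM of the leading named genes reported here in each TRT12 calf, 1 panel per gene with its own linear y axis from 0, where circles are calves (blue C, orange H) and black lines group means. In 4 of the upper 12 panels (TCEAL8, HEBP1, FAM105A and COLGALT1) all C calves lie above all H calves, whereas several lower panels, such as WARS and LOC509854, are carried by 1 or 2 H calves.

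RGS2 (ENSBTAG00000034366), a regulator that shortens signals from G-protein-coupled receptors, was lower in TRT12_C than in TRT12_H. Its counts were 0, 3, 0, 6 and 2 reads in the C calves and 12, 4, 21 and 9 reads in the H calves, or 0.926 ± 0.954 CPM (SD, n = 5) against 5.09 ± 3.20 CPM (SD, n = 4). The groups overlapped through calf 4128 with 1.31 CPM, and 2 C libraries held no read of the gene. The log2 fold change was -2.24 ± 0.70 (unadjusted p = 0.00593, edgeR's quasi-likelihood test) with an interval from -3.73 to -0.75.

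The direction for RGS2 was opposite in TRT0. There the C calves were at 4.04 to 10.2 CPM and the H calves at 0 to 1.44 CPM, with no overlap, while TRT6 had 3.68 ± 1.53 CPM in C and 6.59 ± 2.98 in H (SD, n = 5 and n = 4). In the fit of all 27 calves the log2 parity difference (C minus H) stood at 3.04 ± 0.63 for TRT0, at -0.91 ± 0.52 for TRT6 and at -2.22 ± 0.61 for TRT12. The difference of TRT12 from TRT0, -5.26 ± 0.88, was called (adjusted p = 0.0262 by edgeR's quasi-likelihood test) and was the only call among 15279 genes (0.00654%). It was not called with sequencing lane as a term (adjusted p = 0.186), without TRT0_H calf 4135 (0.121) or without TRT12_H calf 4139 (0.118), although the estimate lay between -5.84 and -4.88 whichever calf was left out. Counts of RGS2 in these groups were at most 23 reads per library. The difference of TRT12 from TRT6 was -1.31 ± 0.81 for RGS2, and no gene was called in that comparison (0.0%, lowest adjusted p 0.996), with 664 genes at an unadjusted p under 0.05.

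CCL14 (ENSBTAG00000010738), a chemokine that attracts monocytes, showed no detectable parity difference in TRT12. It was at 5.79, 3.83, 5.16, 4.77 and 7.33 CPM in the C calves and at 7.61, 1.97, 7.61 and 8.75 in the H calves, where calf 4128 was low and the others lay above the highest C calf. The log2 fold change was -0.28 ± 0.41 with an interval from -1.16 to 0.60. In TRT6 the gene was at 11.3 ± 3.29 CPM in C and 2.46 ± 1.26 in H (SD, n = 5 and n = 4) with a parity difference of 2.09 ± 0.42, and the difference of TRT12 from TRT6 was -2.37 ± 0.57 (unadjusted p = 0.000241, adjusted p = 0.996 by edgeR's quasi-likelihood test).

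**Figure D4:**
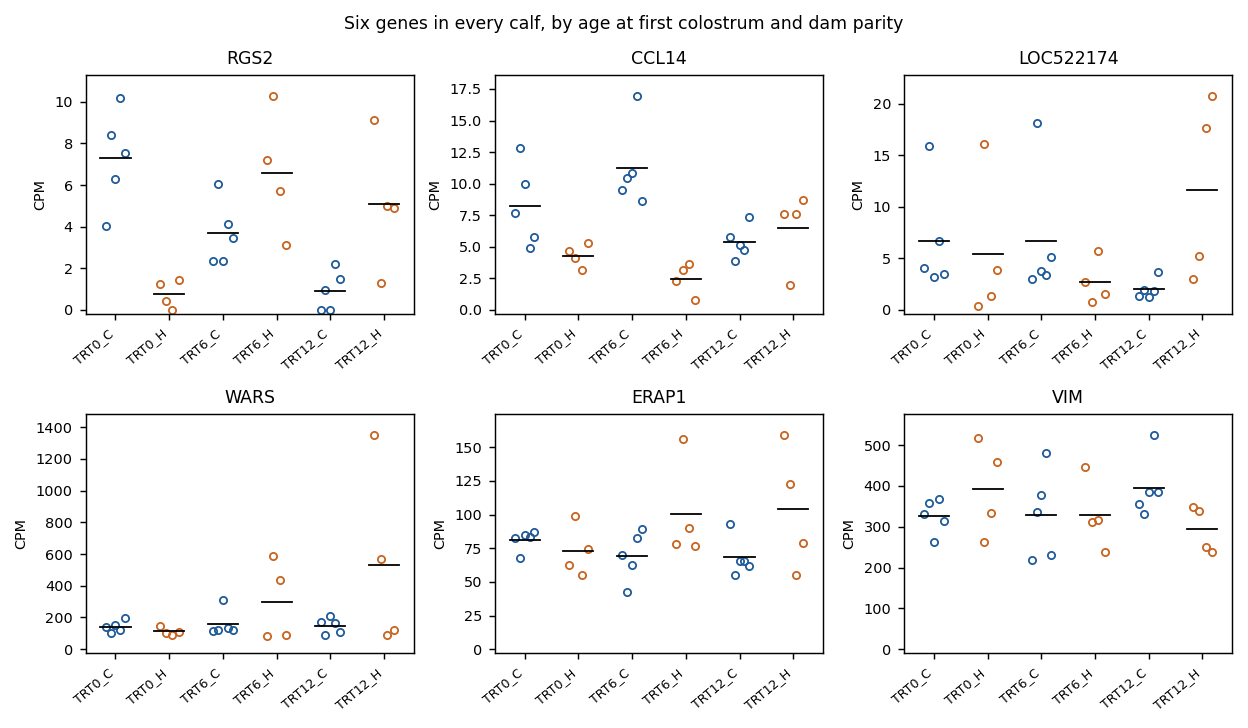
CPM of RGS2, CCL14, LOC522174, WARS, ERAP1 and VIM in all 27 calves, grouped on the x axis by age at first colostrum and dam parity, with circles for calves (blue C, orange H) and black lines for group means on linear y axes. RGS2 is higher in C in TRT0 and higher in H in TRT12, and the highest WARS values belong to 2 of the 4 H calves in each of TRT6 and TRT12.

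The 12 leading named genes higher in calves of cows had mean levels from 5.07 to 351 CPM, with 2 under 10 and 2 over 100. Their log2 fold changes ran from 0.33 to 1.06. TCEAL8 (ENSBTAG00000027843), a member of the transcription elongation factor A-like family, had the smallest p among named genes of this direction. It was at 33.4, 30.0, 24.5, 29.4 and 30.8 CPM in the C calves and at 22.1, 20.7, 16.7 and 22.4 CPM in the H calves, without overlap (log2 fold change 0.58 ± 0.17, unadjusted p = 0.00446, edgeR's quasi-likelihood test). HEBP1, a heme-binding protein whose N-terminal peptide attracts leukocytes, was also without overlap, at 11.01 to 14.2 CPM in C and at 3.80, 2.62, 7.38 and 9.84 in H (1.06 ± 0.35). FAM105A and COLGALT1, an enzyme that adds galactose to collagen, did not overlap either, at 17.3 to 30.1 against 12.6 to 15.97 CPM and 76.4 to 96.6 against 62.9 to 73.8 CPM.

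Several of these genes belong to connective tissue. VIM (ENSBTAG00000018463), the intermediate filament of mesenchymal cells, was at 355, 332, 385, 524 and 384 CPM in the C calves and at 349, 340, 250 and 239 in the H calves, so that calves 4117 and 4128 lay above 1 C calf, 4145. AEBP1, a secreted protein that binds collagen, was at 81.4 ± 16.9 CPM in C and 60.2 ± 9.07 in H, and FBLN1, the matrix protein fibulin 1, at 213 ± 68.0 and 159 ± 41.4 (SD, n = 5 and n = 4). ANXA2, a membrane-binding annexin found in many cell types, was at 332 to 406 CPM in C and 232 to 355 in H. IGF2, a growth factor of fetal tissues, was at 388 to 868 CPM in C and at 354, 566, 317 and 299 in H (0.55 ± 0.22, unadjusted p = 0.0269 by edgeR's quasi-likelihood test).

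All 17 tested members of the fibroblast and matrix list had a positive log2 fold change, from 0.05 for THBS1 to 0.44 for FBLN1, with a median of 0.26 where the median of all tested genes was -0.008 and 48.3% of them were positive. Of these members 0 were called, 1 (FBLN1) had an unadjusted p under 0.05 and none was free of overlap. COL1A1, the main chain of type I collagen, was at 4025, 2553, 3566, 5998 and 2370 CPM in the C calves and at 2731, 4138, 2046 and 2130 in the H calves. The highest values were in calves 4158, 4128 and 4126, and calf 4159 of C lay among the lower H calves. The summed list was at 14370 to 28020 CPM in C and 13130 to 21320 in H. Its genes vary together from calf to calf, so their number adds little to the evidence from 9 calves. With lane as a term 16 of 17 stayed positive with a median of 0.13. In TRT0 all 17 had the opposite sign (median -0.32) and in TRT6 16 of 17 (median -0.10). With all calves, other lists were about as one-sided in TRT12. Positive were 9 of 9 heat shock genes (median 0.10), 15 of 16 of glycolysis and hypoxia (0.15) and 10 of 11 of colon identity (0.15). With a calf left out, the lowest numbers positive were 5 of 9, 11 of 16 and 6 of 11, against 16 of 17 for the matrix list. Heat shock also fell to 6 of 9 when library totals were used without factors. The medians of these other lists were negative in TRT0 and TRT6 too. With lane as a term 16 of 16 cholesterol genes were positive (median 0.21), where 7 had been positive without it. In whole tissue, more cells of a type and more RNA per cell cannot be told apart.

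The remaining leading genes higher in TRT12_C had other roles. CRABP2, which carries retinoic acid to the nucleus, was at 6.46 ± 1.85 CPM in C and 3.34 ± 0.412 in H, and CRYAB, a small heat shock protein, at 14.8 ± 4.92 and 8.90 ± 1.70 (SD, n = 5 and n = 4). B4GALNT3, a glycosyltransferase that builds LacdiNAc on glycans, was at 12.1 to 24.6 CPM in C and 5.33 to 13.8 in H. COPE, a coat subunit of transport vesicles, was at 84.5 ± 17.98 and 62.1 ± 9.98 CPM, and TMEM45A, a transmembrane protein, at 14.5 ± 4.07 and 8.71 ± 2.27.

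Among the members of the epithelial gene lists, the carbonic anhydrases and GP2 had the smallest p. CA1 and CA2 make bicarbonate and protons for salt exchange across the colonocyte. CA1 was at 115, 48.6, 248, 143 and 113 CPM in the C calves and at 116, 51.2, 61.2 and 76.0 in the H calves (log2 fold change 0.84 ± 0.34), and CA2 at 54.0 to 251 in C and 41.1 to 110 in H (0.86 ± 0.37). Without calf 4147 the estimate for CA1 was 0.46, and without calf 4158 that for CA2 was 0.43. Of the 17 tested genes of colonocyte transport these 2 had an unadjusted p under 0.05, 14 were positive, and the median was 0.17. SLC26A3, the chloride and bicarbonate exchanger, SLC9A3, a sodium and proton exchanger, and AQP8, a water channel, had log2 fold changes of 0.17 ± 0.27, 0.17 ± 0.19 and 0.12 ± 0.22.

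GP2, a glycoprotein that binds fimbriated bacteria, was present or nearly absent in single calves. It was at 216, 250, 0, 174 and 325 CPM in the C calves and at 12.9, 124, 2.86 and 2.19 in the H calves, and the 0 in calf 4147 allows a level of up to 1.93 CPM. Its log2 fold change was 2.49 ± 0.98 (unadjusted p = 0.0229, edgeR's quasi-likelihood test), and it was 5.28 without calf 4128. In TRT0 the sign was opposite (-2.07). The mucin MUC1 was at 185 to 244 CPM in C and 78.4 to 240 in H (0.52 ± 0.26), the goblet cell genes AGR2, CLCA1, SPINK4 and TFF3 were at 0.41 ± 0.26, 0.39 ± 0.28, 0.33 ± 0.24 and 0.17 ± 0.23 on the log2 scale, and none of the 5 tested goblet genes had an unadjusted p under 0.05.

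No difference was detected in genes of antibody transport. PIGR, the receptor that carries IgA into the lumen, was at 677 to 1812 CPM in C and 1003 to 1736 in H (log2 fold change -0.012 ± 0.27, interval within a 2-fold difference), and FCGRT, the neonatal Fc receptor that binds IgG, at 172 and 158 CPM on average (0.14 ± 0.16). Of the 12 tested cell cycle genes 6 were positive and 6 negative with a median log2 fold change of 0.009, and the 59 ribosomal protein genes had a median of 0.014 with no member at an unadjusted p under 0.05. With lane as a term 9 of the 12 cell cycle genes were positive (median 0.18) and 51 of the 59 ribosomal protein genes (median 0.14), where 33 had been positive without it. The 14 tight junction genes had a median of -0.018. Of 8 tested genes more typical of the small intestine only APOC3, a protein of lipoproteins, had an unadjusted p under 0.05. It was at 0.367 to 5.79 CPM in C and at 6.09, 1.97, 24.3 and 2.19 in H, so that its direction rested on calf 4139 (log2 fold change -1.68 ± 0.74, and 0.009 without it). TRIB3, a pseudokinase induced by amino acid shortage and stress of the endoplasmic reticulum, was at 1.95 ± 1.26 CPM in C and 4.66 ± 1.69 in H (SD, n = 5 and n = 4), whereas 14 of the 16 tested genes of that stress response were positive (median 0.18, and 0.49 with lane as a term).

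Across all lists, 376 different genes were tested, 0 were called, and 6 in each direction had an unadjusted p under 0.05. Those higher in C were CA1, CA2, GP2, FBLN1, CRYAB and IGF2, and those higher in H included ERAP1, HBG, APOC3, TRIB3 and RGS2. The 33 lists with at least 3 tested members had medians from -0.43 (interferon) to 0.33 (goblet). The interferon median turned positive with lane as a term (0.11, 2 of 3 members positive) and without the run that held no C calf (0.083), while the goblet median was 0.49 and 0.50. The 11 growth factor genes were all positive in TRT12, but with a median of 0.05, and 7 of 11 stayed positive with lane as a term. NDUFA3, a subunit of respiratory complex I and named after its values had been seen, was the only list member without overlap, at 5.79 to 8.44 CPM in C and 8.57 to 10.2 in H. Its list, nuclear genes of oxidative phosphorylation, leaned the other way. There 28 of 37 members were positive (median 0.064), and 31 of 37 with lane as a term (median 0.19).

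**Figure D5:**
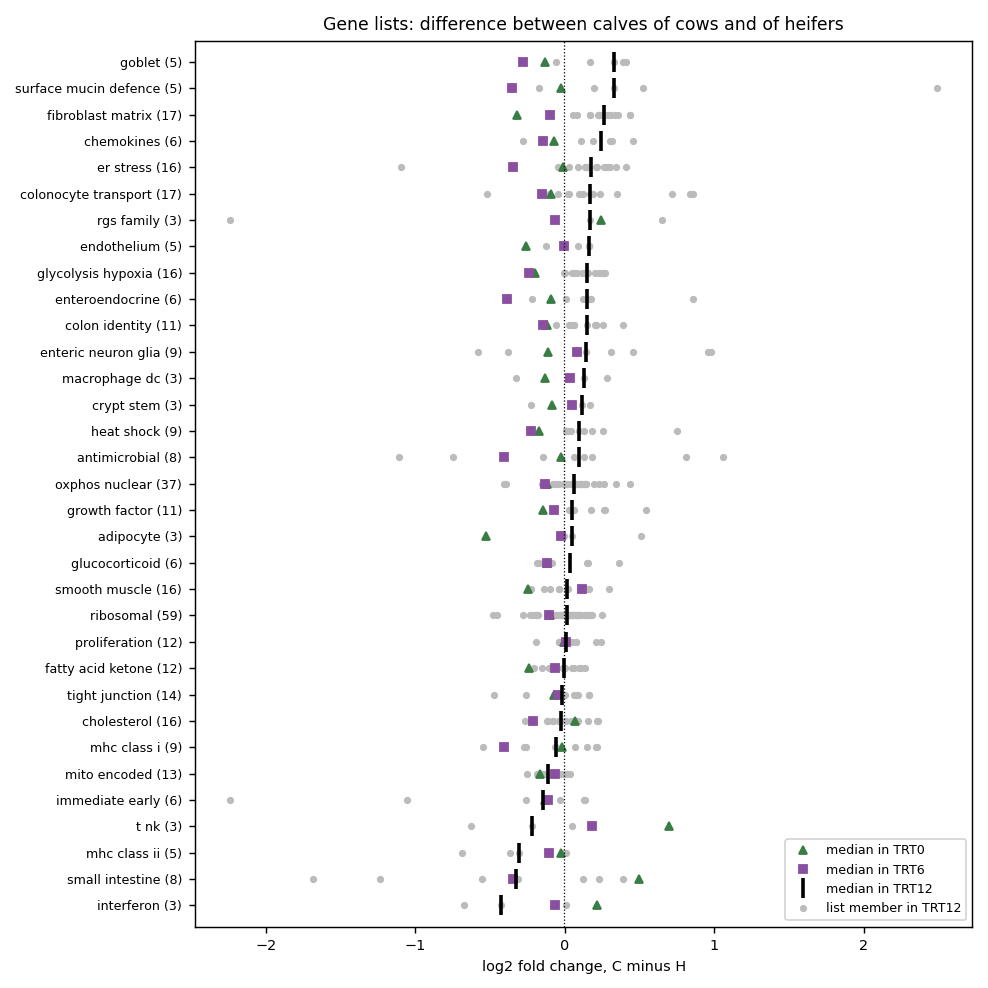
Log2 fold change of C minus H (x axis) for each list of at least 3 tested genes (y axis, number tested in brackets), with grey points for members in TRT12, black bars for their median, green triangles and purple squares for the medians in TRT0 and TRT6, and a dotted line at the median of all tested genes in TRT12. The median of the fibroblast and matrix list is positive in TRT12 (0.26) and negative in TRT0 (-0.32) and TRT6 (-0.10). Other lists have the same signs, among them heat shock, glycolysis and hypoxia, and colon identity.

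The leading genes of TRT12 kept their sign in other treatments to different extents. Of the 12 leading named genes higher in TRT12_C, 1 had the same sign in TRT0 and 3 in TRT6, and of the 12 higher in TRT12_H, 5 and 9. None of the first set and 1 and 2 of the second had an unadjusted p under 0.05 in the same direction there. Among all 14596 genes, 42.3% had the same sign in TRT12 as in TRT0 and 46.0% as in TRT6. Across genes, which are not independent of each other, the correlation of the parity difference in TRT12 with that in TRT0 was -0.13 and with that in TRT6 -0.013 (Pearson's r). In the fit of all 27 calves TRT0 and TRT6 had no called gene for parity by edgeR's quasi-likelihood test either. They had 402 (2.63%) and 590 (3.86%) genes at an unadjusted p under 0.05, beside 415 (2.72%) for TRT12 in that fit. The study ran its own edgeR analysis at the same thresholds of fold change and adjusted p, but with another filter on low counts. For parity it called RGS2 in TRT0 and CCL14 in TRT6, both higher in C, and no gene in TRT12. Between feeding times it also called RGS2, lower in TRT12_C than in TRT0_C and higher in TRT6_H than in TRT0_H. RGS2 and CCL14 were named here because the study names them. ANXA2 and TCEAL8, both higher in TRT12_C, had the opposite sign elsewhere: ANXA2 was at 0.41 ± 0.15 in TRT12, -0.31 in TRT0 and -0.32 in TRT6, and TCEAL8 at 0.58 ± 0.17, -0.24 and -0.47 on the log2 scale.

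Only 3840 of the tested genes (26.3%) carried a name in the tables used, and 80 of the 319 genes at an unadjusted p under 0.05. Unnamed genes were among those of smallest p. ENSBTAG00000047621 was at 6.45 to 9.55 CPM in C and 1.52 to 4.59 in H (log2 fold change 1.21 ± 0.32, unadjusted p = 0.00156 by edgeR's quasi-likelihood test), and ENSBTAG00000047379 at 0 to 1.60 CPM in C and 1.90 to 10.7 in H (-2.65 ± 0.70, unadjusted p = 0.00185). Neither overlapped between the groups.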

How the data were processed

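RNA of colon was sequenced (paired-end, 100 bp) in 27 calves, and the 9 TRT12 calves were analysed here. The authors deposited raw counts of reads for each Ensembl gene, made by aligning reads to UMD 3.1 with TopHat2 2.1.1, sorting with SAMtools 1.4 and counting with HTSeq, leaving out reads assigned to more than 1 gene. A strand setting is not given in the sources used here, so overlapping or antisense genes are uncertain. No normalization had been applied, and 0 columns were left unused.

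CPM used the total of all gene counts in a library. Genes with a CPM of at least 1 in at least 4 of the 9 libraries were tested with edgeR 4.0.16 in R 4.3.3 (TMM factors 0.910 to 1.14, quasi-likelihood test, parity as the only term, common biological coefficient of variation 0.233). Calls needed a Benjamini-Hochberg adjusted p of 0.1 or less and a fold change of 1.2, the thresholds of the study. Intervals are 95% intervals from the moderated t distribution. Differences between treatments came from a fit of all 27 calves with 6 group means. The script was tested on simulated data. Profiles used log2(CPM + 1), and single values exact permutation tests (scipy 1.17.1).

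Symbols came from the supplementary tables of the study, since 0 rows of the reference gene table held Ensembl identifiers, and no sequence was available to print. Named genes were called genes or, with fewer than 12 in a direction, the named genes of smallest unadjusted p up to 12, with RGS2 and CCL14, list members at p under 0.05 (at most 4 per list), genes called for a difference between treatments and the 5 named genes of highest CPM. Members and lists were chosen with earlier results of these data known. Calves are separate animals, and p-values set the difference against the spread between them, which the edgeR fits moderate across genes. Both the difference and this spread include the run that held H calves but no TRT12_C calf. The alternatives tried are given at the end. Some genes are not reported here.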

Additional observations from a re-analysis of the deposited data

Results flagged for a closer look

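The parity difference of RGS2 in TRT12 differed from that in TRT0 by -5.26 on the log2 scale, by the test of the difference itself in the fit of all 27 calves. Of 146 sets of values checked (the named genes, the list sums, library totals and numbers of genes, in C and in H), 10 held a calf far from the others of its group, where about 1 in 20 would by chance. In TRT12_C these were VIM in calf 4158 (524 CPM, next 385), LOC522174 in calf 4159 (3.67 CPM, next 1.92), MIR2904-1 in calf 4145 (174 CPM, next 38.0) and ERAP1 in calf 4126 (93.0 CPM, next 65.8). In TRT12_H they were CCL14 in calf 4128 (low at 1.97 CPM, next 7.61), CA2 in calf 4168 (110 CPM, next 50.5), GP2 in calf 4128 (124 CPM, next 12.9) and CYTB, a mitochondrial gene, in calf 4117 (low at 2981 CPM, next 4183). Calf 4117 was also far above the other H calves in the summed MHC class II list (1914 CPM, next 1117) and the macrophage list (112 CPM, next 70.0).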

How the results depend on the processing

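No alternative gave more than 1 called gene for TRT12_C vs. TRT12_H: the likelihood ratio test called 1 (LOC522174), and the other alternatives, including each calf left out in turn and an adjusted p of 0.05, called 0. The 319 genes at an unadjusted p under 0.05 became 553 with no filter on low counts, 550 with lane as a term (57.1% higher in C against 43.9% before) and 670 without the run that held no C calf (54.8% higher in C), and 254 to 665 with 1 calf left out. The count was over 1.5 times higher without calf 4168 (665) and without calf 4128 (528). The cause was not tested. The 104 genes without overlap became 177 to 416 with a calf left out, since fewer calves overlap less. That alternative and the leave-out of calves for RGS2 were chosen after seeing the data. The 1 gene called for TRT12 against TRT0 became 0 with lane as a term, and 0 to 1 with a calf left out, being lost without TRT0_H calf 4135 or TRT12_H calf 4139. Of 653 values for 33 named genes, 649 kept their direction and stayed uncalled, and LOC522174 was called once. CCL14 reversed with lane as a term (0.091) and without that run (0.024), and APOC3 without calf 4139 (0.009, the lowest being -2.056 without calf 4128). Of 396 list medians 386 moved by less than the spread between calves. The shares of distance and the numbers of genes stayed on their side of the threshold under all alternatives run. No paired analysis was possible because calf numbers mark different animals in C and H. Depth limits genes under 10 CPM most, and every value rests on 5 and 4 calves. Parity and run can be separated only through the 7 calves of the run that held both groups, where 4128 and 4139 were the H calves.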
